A study of Homo sapiens with 30 samples.

Results

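Acquired resistance to doxorubicin was examined in a single pair of B cell lymphoma cultures, OCI-LY19R and OCI-LY19S. OCI-LY19 is an established cell line of diffuse large B cell lymphoma (DLBCL). OCI-LY19R is its derivative with acquired resistance, routinely grown with 20 nM doxorubicin until 1 week before use. OCI-LY19S is the sensitive parental culture, grown without the drug. The labels give both cultures the genotype WT and no other agent. Each group holds 3 libraries, so the comparison uses 6 of the 30 RNA sequencing libraries of the series, and 12785 of 60656 listed genes reached 1 FPKM (fragments per kilobase of transcript, scaled to the reads of the library) in at least 3 of the 6. A further 6 libraries of the line OCI-LY19, taken at 24 h of 0.2 µM doxorubicin or untreated at 0 h, come from a table that the authors normalized separately. They are set beside the pair but not tested against it. That table also holds the lines OCI-LY3, HT and SUDHL5, untreated at 0 h or at 24 h of 0.2 µM doxorubicin, which enter only the fit of the acute response. The labels describe the replicates of each group as biological triplicates. OCI-LY19R is 1 derivative, so resistance cannot be told apart from the culture history of that derivative, and the p-values below measure the spread between libraries of these 2 cultures.

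Doxorubicin is an anthracycline that traps topoisomerase II on DNA and leaves strand breaks, and it is a core drug of DLBCL chemotherapy. Cells can resist it by pumping it out through ABC transporters, by carrying less topoisomerase II, by repairing or tolerating breaks, or by failing to start apoptosis through p53 and the BCL2 family. DLBCL cells also differ in NF-kB signalling, in glucose use and in B cell surface genes such as CD20 and MHC class II, the molecules that present peptides to CD4+ T cells.

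The libraries were uneven. Read totals recovered from the FPKM values were 33439107, 26419983 and 23782084 in OCI-LY19R, against 18354091, 20558372 and 121769119 in OCI-LY19S, so OCI-LY19S replicate 3 is far deeper than the rest. OCI-LY19S replicate 1 stood apart from its group: its log2(FPKM + 1) values correlated at 0.967 and 0.965 with the other OCI-LY19S libraries, which correlated at 0.991 with each other across the tested genes. In that library CHAC1, a glutathione-degrading enzyme of the integrated stress response, was at 21.8 FPKM, against 1.45 and 2.63 FPKM in OCI-LY19S replicates 2 and 3, and the heat shock chaperone HSPA8 was at 228 FPKM, against 692 and 718 FPKM. Its part in the results was not tested beyond leaving it out, and the main results are given with and without it. Of the B cell markers, the transcription factor PAX5, chosen after its values were seen, had 43.4, 39.7 and 34.6 FPKM in OCI-LY19R, against 48.4, 50.5 and 51 FPKM in OCI-LY19S. It was thus well above the filter in all 6 libraries, which does not settle cell identity. Other B cell markers changed more: the surface gene MS4A1 was called higher (1.82), and the surface genes CD22 (-1.02) and CD79B (-0.96) were not called. Of the markers of T and NK, myeloid, erythroid, and stromal, epithelial or endothelial cells, 31 genes in all, 5 reached the filter.

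Of the 12785 genes, 696 (5.44%) passed: 397 (3.11%) were higher and 299 (2.34%) lower in OCI-LY19R at a Benjamini-Hochberg adjusted p below 0.05 in limma's moderated test on log2(FPKM + 1). At least a 2-fold change on that scale, which understates the change of low genes, was reached by 112 of the higher and 100 of the lower genes. With voom on whole reads recovered from the FPKM values, 539 genes (4.22%) were higher and 361 (2.82%) lower. The 3 OCI-LY19R libraries lay entirely above or below the 3 OCI-LY19S libraries for 4176 genes (32.7%), of which 2669 (20.9%) were above and 1507 (11.8%) below. An unadjusted p below 0.05 was reached by 3002 of the 12785 genes in either direction. The median change of all tested genes was 0.05. Higher genes made 57.0% of the calls, but 44.9% after median-of-ratios scaling and 47.0% after quantile normalization, so neither direction prevailed under every scaling. Without OCI-LY19S replicate 1 the counts were 620 higher (4.94%) and 432 lower (3.45%) of 12538 genes. They were 166 and 123 without OCI-LY19R replicate 1, 3 and 18 without OCI-LY19R replicate 2, 8 and 25 without OCI-LY19R replicate 3, 16 and 8 without OCI-LY19S replicate 2, and 143 and 148 without OCI-LY19S replicate 3. The calls below therefore rest on all 6 libraries or on the 5 without OCI-LY19S replicate 1. Of 117 named genes that passed, none changed sign under any alternative. Where groups do not overlap, as the choice of the top genes required, leaving out 1 library cannot change the sign. Of the 117, 8 passed without OCI-LY19R replicate 2, 10 without OCI-LY19R replicate 3 and 8 without OCI-LY19S replicate 2. PINCR, C12orf75, IGKC and UTP23 passed under all 15 alternatives. NDRG1, IRF5 and VPREB3 passed wherever they were tested, but that was in 11, 11 and 12 of the 15. They reached the filter through their higher group alone, so leaving out a library of that group left them untested. The same held for S100A6, PTGS1, PDGFRB, BIK, FCER2, CD86 and MVP, among others. For such genes the filter itself fixes the lack of overlap, so that and their adjusted p are no independent support.

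Among called genes with no overlap and a mean of at least 10 FPKM in the higher group, the largest rise was that of PINCR, a long non-coding RNA induced by p53 (X:43176994-43226598, plus strand, GRCh38). PINCR had 24.7, 26.8 and 16.7 FPKM in OCI-LY19R, against 1.15, 1.48 and 1.15 FPKM in OCI-LY19S, a log2 change of 3.37 ± 0.18 (SE, limma adjusted p = 0.000815). The lowest OCI-LY19R library was more than 10 times the highest OCI-LY19S library. S100A6, a calcium-binding protein (1:153534599-153536244, minus strand), had 5.24, 12.5 and 20.7 FPKM in OCI-LY19R, against 0.337, 0.351 and 0.516 FPKM in OCI-LY19S (3.13 ± 0.41, limma adjusted p = 0.0127). Its OCI-LY19R libraries differed among themselves more than its OCI-LY19S libraries did, and the groups did not overlap. ITGA6, the laminin-binding integrin alpha 6 (2:172427354-172506282, plus strand), had 6.05, 9.36 and 16.8 FPKM in OCI-LY19R, against 2.37, 1.66 and 1.05 FPKM in OCI-LY19S (2.05 ± 0.34, limma adjusted p = 0.0248). FCMR, a receptor for IgM, had 27.7, 31.4 and 29.7 FPKM in OCI-LY19R, against 14.2, 5.20 and 5.85 FPKM in OCI-LY19S (1.82 ± 0.32, limma adjusted p = 0.0286). OCI-LY19S replicate 1 was the highest of the parental libraries for FCMR, and without it the change was 2.23. The other genes among the 15 of largest rise were the histone gene H2BC12, the MHC class II genes HLA-DRA and HLA-DRB1, MS4A1 (CD20), TRAC (the T cell receptor alpha constant segment), the matrix glycoprotein EMILIN2, the leukotriene factor ALOX5AP, the CDC42 effector CDC42EP3, the small heat shock protein HSPB1, the granule proteoglycan SRGN and SMC6 of the SMC5/6 complex, with changes of 1.39 to 2.19.

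By the same criteria the largest fall was that of CYP2W1, a cytochrome P450 (7:983199-989640, plus strand). CYP2W1 had 4.65, 0.461 and 0.422 FPKM in OCI-LY19R, against 29.6, 46.7 and 40.2 FPKM in OCI-LY19S (-4.11 ± 0.52, limma adjusted p = 0.0124). OCI-LY19R replicate 1 kept about 10 times the level of the other resistant libraries, and the same library was the highest of the resistant group for the neighbouring genes GPER1 and GPR146. GPER1, a membrane estrogen receptor, had 4.43, 0.982 and 1.6 FPKM in OCI-LY19R, against 14.5, 42.5 and 27.7 FPKM in OCI-LY19S (-3.15 ± 0.47, limma adjusted p = 0.0182). The 7 neighbouring tested genes from GET4 to GPER1 (7:876552-1138260) form a block whose ends were chosen after their values were seen. All 7 were below 0, and 3 were called lower, beside 2.34% of all genes. None of the 7 overlapped between groups, beside 11.8% of all genes that lay below without overlap. VPREB3, a component of the pre-B cell receptor (22:23752743-23754468, minus strand), had 0.738, 0.467 and 0.371 FPKM in OCI-LY19R, against 17.7, 11.6 and 12.2 FPKM in OCI-LY19S (-3.26 ± 0.17, limma adjusted p = 0.000815). VPREB3 was thus under 1 FPKM in every resistant library and above 11 FPKM in every parental one.

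ASS1, which makes argininosuccinate for arginine synthesis, had 4.85, 3.61 and 4.32 FPKM in OCI-LY19R, against 89.1, 33.5 and 25.5 FPKM in OCI-LY19S (-3.05 ± 0.42, limma adjusted p = 0.0148). The highest parental value was again that of OCI-LY19S replicate 1, and the change without it was -2.53. BIK, a BH3-only protein that promotes apoptosis, had 0.503, 0.398 and 0.486 FPKM in OCI-LY19R, against 14.3, 13.3 and 3.10 FPKM in OCI-LY19S (-2.72 ± 0.48, limma adjusted p = 0.0283). The groups of BIK did not overlap, but its voom adjusted p on recovered reads was 0.0860. ETS1, a lymphoid transcription factor, had 4.77, 2.96 and 2.05 FPKM in OCI-LY19R, against 19.7, 14.5 and 12.3 FPKM in OCI-LY19S (-1.98 ± 0.26, limma adjusted p = 0.0127). The remaining genes among the 15 of largest fall were C12orf75, the chromatin reader PWWP2B, the lysosomal nuclease DNASE2, the orphan receptor GPR146, AEBP1, the focal adhesion protein TES, the membrane rupture protein NINJ1, the antisense transcript MME-AS1 and the granule protease GZMA, with changes of -2.15 to -1.69. MME-AS1 overlaps MME on the other strand, and the strand setting of the counting is not given in the sources used here, so reads of the pair may be shared. GZMA lost its call without OCI-LY19S replicate 1 (limma adjusted p = 0.0614).

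**Figure D1:**
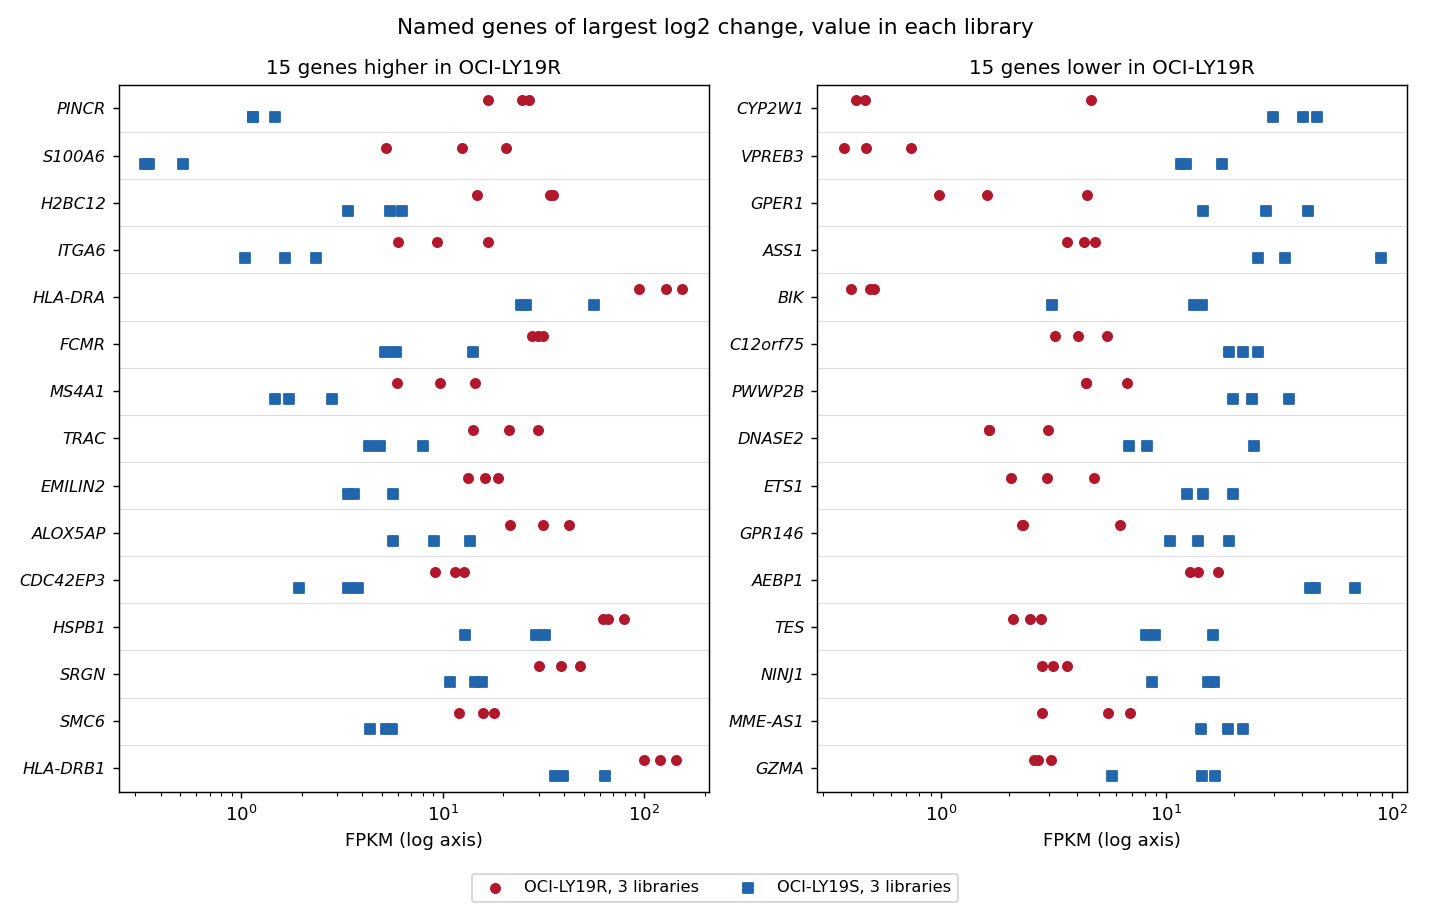
FPKM (log axis) in each library for the 15 named genes of largest rise (left) and of largest fall (right), with OCI-LY19R circles above OCI-LY19S squares in each row. The groups do not overlap in any row, which the choice of these genes requires; CYP2W1 has 1 resistant library at 4.65 FPKM and the others under 0.5 FPKM.

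MHC class II genes were higher as a group. Their transcription depends on CIITA, a coactivator that binds no DNA itself and joins the factors bound at the conserved X and Y boxes of these promoters. To show the sequence near their starts, the 150 bases before the RefSeq start of 4 of them are given, 5′ to 3′ on the gene's strand (GRCh38.p14). The Y box core ATTGG, and the X box letters AGCAAC where present, are in capitals.
HLA-DRB1: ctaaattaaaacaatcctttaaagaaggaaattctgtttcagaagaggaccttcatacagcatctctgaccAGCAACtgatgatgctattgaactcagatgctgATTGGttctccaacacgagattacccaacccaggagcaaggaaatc
HLA-DRB5: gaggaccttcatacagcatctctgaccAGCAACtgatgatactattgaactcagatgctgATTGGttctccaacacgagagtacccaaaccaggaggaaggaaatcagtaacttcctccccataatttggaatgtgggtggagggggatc
HLA-DQA1: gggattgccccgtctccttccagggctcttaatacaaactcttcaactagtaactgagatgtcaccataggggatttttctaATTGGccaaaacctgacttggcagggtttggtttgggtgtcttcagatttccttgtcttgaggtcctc
HLA-DQB1: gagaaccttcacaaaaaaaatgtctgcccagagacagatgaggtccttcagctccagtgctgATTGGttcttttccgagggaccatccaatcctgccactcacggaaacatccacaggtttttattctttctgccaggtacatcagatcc
The windows lie at chr6:32589849-32589998, chr6:32530288-32530437, chr6:32637256-32637405 and chr6:32666658-32666807, the second listed gene being HLA-DRB5. ATTGG begins 46, 90, 68 and 88 bases before the starts of HLA-DRB1, HLA-DRB5, HLA-DQA1 and HLA-DQB1 in turn. In HLA-DRB1 and HLA-DRB5 it follows the start of AGCAAC by 33 bases. On either strand and over the whole 300-base windows, 250 bases before to 50 after the start, ATTGG was present in 10 of the 11 MHC class II promoters with an entry (90.9%), against 35.7% of 27305 promoters. AGCAAC was present in 4 of the 11 (36.4%), against 13% of all promoters. The 4 were HLA-DRB1, HLA-DRB5, HLA-DMA and HLA-DOA, the last not among the tested genes. In HLA-DMA AGCAAC begins 216 bases before the start and 137 bases before ATTGG. HLA-DQA1 and HLA-DQB1 hold no AGCAAC. These letters were chosen after the values were seen. An NF-kB pattern, GGG and NCC around NNTT on either strand, was in 6.56% of 259 promoters of genes higher in OCI-LY19R and 5.39% of 204 promoters of lower genes, against 5.67% of all promoters and 6.64% of promoters of tested genes. The E-box CACGTG was in 7.72% and 13.7% of the same sets, against 7.43% of all promoters and 10.9% of promoters of tested genes.

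All 10 tested MHC class II genes of 13 listed had a change above 0, with a median of 1.38 beside 0.05 over all genes. Of the 10, 9 passed, beside 3.11% of all genes that were higher. HLA-DRA, the invariant alpha chain of HLA-DR (6:32439842-32445046, plus strand), had 93.9, 154 and 128 FPKM in OCI-LY19R, against 24.5, 25.9 and 56.4 FPKM in OCI-LY19S (1.86 ± 0.34, limma adjusted p = 0.0303). CIITA had 7.09, 10.1 and 9.87 FPKM in OCI-LY19R, against 2.92, 2.71 and 3.71 FPKM in OCI-LY19S (1.28 ± 0.16, limma adjusted p = 0.0106). HLA-DRB1, whose promoter is printed above, had 99.8, 144 and 120 FPKM in OCI-LY19R, against 39.6, 36.1 and 64.2 FPKM in OCI-LY19S (1.39 ± 0.24, limma adjusted p = 0.0254). In all 3 genes every resistant library was above every parental one, as in 20.9% of all genes. In each, OCI-LY19S replicate 3, the deepest library, was the highest of its group. HLA-DQA1 had 6.98, 11.5 and 7.56 FPKM in OCI-LY19R, against 1.99, 1.63 and 2.89 FPKM in OCI-LY19S (1.6 ± 0.21, limma adjusted p = 0.0129). HLA-DQB1, HLA-DMA, HLA-DPA1, HLA-DRB5 and HLA-DPB1 rose by 1.22 to 1.58. CD74, the invariant chain that guards the peptide groove, had 395, 558 and 506 FPKM in OCI-LY19R, against 124, 124 and 295 FPKM in OCI-LY19S (1.54 ± 0.35), which did not pass (limma adjusted p = 0.0534). Without OCI-LY19S replicate 1 again 9 members passed; without OCI-LY19R replicate 1 it was 5, and without OCI-LY19R replicate 2, OCI-LY19R replicate 3 or OCI-LY19S replicate 2 it was 0, with every change still above 0. HLA genes are near copies that can exchange reads, so the share of each gene is uncertain. In bulk RNA, fewer cells carrying a transcript and less of it per cell cannot be told apart.

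**Figure D2:**
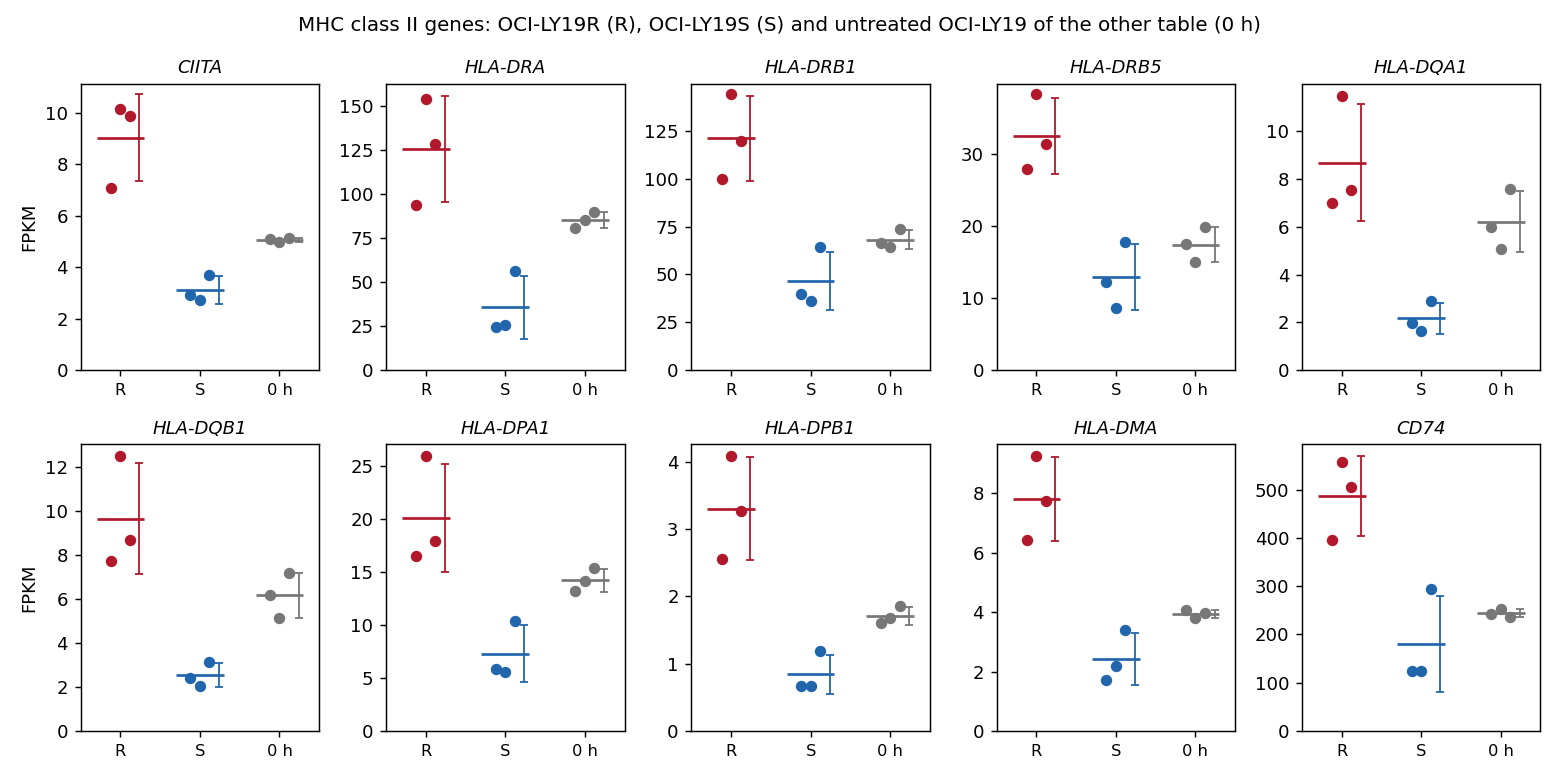
FPKM of the 10 tested MHC class II genes in OCI-LY19R (R), OCI-LY19S (S) and untreated OCI-LY19 at 0 h of the separately normalized table, with 3 libraries each, the mean as a line and the SD as a bar. OCI-LY19R libraries lie above OCI-LY19S libraries in every panel, and the 0 h libraries lie between them for HLA-DRA (85.3 FPKM on average).

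Of the MHC class I genes all 15 tested members had a change above 0, with a median of 0.47. Of the 15, HLA-B and HLA-F alone passed, beside 3.11% of all genes that were higher. HLA-B had 174, 237 and 243 FPKM in OCI-LY19R, against 107, 87.9 and 133 FPKM in OCI-LY19S (1 ± 0.19, limma adjusted p = 0.0347), and HLA-F rose by 1.18 ± 0.21. Without the first parental library 4 members passed. Of 19 tested interferon-stimulated genes, 2 rose and 1 fell, beside 3.11% and 2.34% of all genes. The ISG15 protease USP18 was among those that rose (0.60 ± 0.08). OAS3, an RNA sensor, fell (-0.86 ± 0.18) and lost its call without OCI-LY19S replicate 1 (limma adjusted p = 0.0645). IRF8, a transcription factor of B cells that also acts on MHC genes, had 78.4, 106 and 127 FPKM in OCI-LY19R, against 20.6, 30.4 and 62.6 FPKM in OCI-LY19S (1.55 ± 0.39, limma adjusted p = 0.0690). Its groups did not overlap, beside 20.9% of all genes that lay above without overlap, and its change did not pass.

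B cell surface genes went both ways. Of 18 tested B lineage genes 2 rose and 4 fell, beside 3.11% and 2.34% of all genes, with a median of -0.38. MS4A1, which encodes CD20, the target of rituximab, had 5.94, 9.69 and 14.4 FPKM in OCI-LY19R, against 1.72, 2.83 and 1.48 FPKM in OCI-LY19S (1.82 ± 0.30, limma adjusted p = 0.0245). FCER2, the low-affinity IgE receptor CD23, had 2.39, 1.37 and 1.90 FPKM in OCI-LY19R, against 0.111, 0.0794 and 0.171 FPKM in OCI-LY19S (1.35 ± 0.15, limma adjusted p = 0.00850). On the falling side, CD38, an ectoenzyme of B cell activation, had 6.01, 5.55 and 4.19 FPKM in OCI-LY19R, against 15.4, 14.8 and 14.4 FPKM in OCI-LY19S (-1.35 ± 0.12, limma adjusted p = 0.00509). CD24, a glycoprotein of immature B cells, fell by 1.48 ± 0.18, the coactivator POU2AF1 fell by 1.03 ± 0.19 and FCRLA fell by 0.94 ± 0.18. None of these 6 genes overlapped between groups, as was the case for 32.7% of all genes. CD79A, a signalling chain of the B cell receptor, and PAX5 did not pass, with changes of -0.42 and -0.35.

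Genes of earlier B cell stages and of the germinal center fell where they passed. Among 11 tested surrogate light chain and recombination genes, VPREB3 and IGLL1 fell and none rose, beside 2.34% and 3.11% of all genes. IGLL1, the lambda 5 chain of the pre-B cell receptor, had 624, 457 and 588 FPKM in OCI-LY19R, against 901, 817 and 951 FPKM in OCI-LY19S (-0.69 ± 0.15), and it was just past the threshold with all libraries and just short of it without OCI-LY19S replicate 1 (limma adjusted p = 0.0510). Among 7 tested germinal center genes, MME, EZH2 and KLHL6 fell, beside 2.34% of all genes. MME, the endopeptidase CD10, had 8.13, 5.25 and 3.13 FPKM in OCI-LY19R, against 19.8, 17.8 and 13.2 FPKM in OCI-LY19S (-1.52 ± 0.29, limma adjusted p = 0.0335; 0.0542 without OCI-LY19S replicate 1). EZH2, the H3K27 methyltransferase, fell by 0.85 ± 0.17. IGKC, the kappa constant segment, had 8.58, 7.82 and 11 FPKM in OCI-LY19R, against 27.9, 29.8 and 24.7 FPKM in OCI-LY19S (-1.5 ± 0.14, limma adjusted p = 0.00509), the only called gene of 6 tested immunoglobulin constant genes. In B cell receptor signalling, the adaptor BLNK (0.76 ± 0.09) and the kinase subunit PIK3CD (0.92 ± 0.17) rose and none of 15 fell, beside 3.11% and 2.34% of all genes. Of 10 tested genes of activated B cells and plasmablasts, none passed in limma, 2 reached an unadjusted p below 0.05 and 1 passed with voom. That unadjusted threshold was reached by 3002 of all 12785 genes.

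Of the NF-kB components, 1 of 12 tested non-canonical and 2 of 18 tested canonical genes were called, and 2 of 12 tested target genes, beside 5.44% of all genes. In the non-canonical pathway, in which receptors such as BAFF-R release the kinase NIK to process p100, the ligand gene TNFSF13B (BAFF) alone passed of 12 tested. TNFSF13B had 7.5, 9.42 and 5.43 FPKM in OCI-LY19R, against 2.55, 3.21 and 4.01 FPKM in OCI-LY19S (0.98 ± 0.20, limma adjusted p = 0.0408), and it lost its call without OCI-LY19S replicate 1 (limma adjusted p = 0.0592). NFKB2, which encodes p100, had 3.09, 3.65 and 3.50 FPKM in OCI-LY19R, against 5.94, 2.16 and 2.67 FPKM in OCI-LY19S (0.03 ± 0.28, limma adjusted p = 0.962). RELB, its partner, had 1.99, 3.09 and 3.30 FPKM in OCI-LY19R, against 6.74, 2.44 and 2.21 FPKM in OCI-LY19S (-0.23 ± 0.34, limma adjusted p = 0.725). In both genes OCI-LY19S replicate 1 was the highest of the 6 libraries and the groups overlapped, and without it the changes were 0.37 for NFKB2 and 0.17 for RELB, neither past the threshold. MAP3K14 (NIK), TRAF2, TRAF3, BIRC2 and CHUK had changes of -0.22 to 0.17 and did not pass, and BIRC3 was below the filter.

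In the canonical pathway NFKBIZ, an atypical IkB protein, rose and TNFAIP3, the A20 inhibitor, fell of 18 tested genes. NFKBIZ had 5.42, 6.68 and 5.35 FPKM in OCI-LY19R, against 2.57, 3.07 and 3.87 FPKM in OCI-LY19S (0.72 ± 0.14, limma adjusted p = 0.0364). TNFAIP3 had 4.59, 4.08 and 5.02 FPKM in OCI-LY19R, against 16.9, 9.95 and 8.18 FPKM in OCI-LY19S (-1.13 ± 0.24, limma adjusted p = 0.0423). NFKB1 (-0.04 ± 0.10) and RELA (-0.14 ± 0.08) did not pass. Among 12 tested NF-kB target genes the adaptor TRAF1 (0.85 ± 0.12) and the costimulatory ligand CD86 (1.10 ± 0.15) rose. CD86 had 1.27, 2.09 and 1.43 FPKM in OCI-LY19R, against 0.206, 0.0991 and 0.315 FPKM in OCI-LY19S. It was thus low in both groups, and the filter fixed the lack of overlap.

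Among glucose genes, 1 of 9 tested for entry and lactate exit and 1 of 21 glycolytic enzymes were called, near the 5.44% of all genes. Of the 9, SLC2A5, a fructose transporter, rose: it had 2.43, 2.34 and 2.36 FPKM in OCI-LY19R, against 0.813, 0.961 and 1.5 FPKM in OCI-LY19S (0.71 ± 0.14, limma adjusted p = 0.0345). SLC2A3 (GLUT3) had 4.42, 3.58 and 4.16 FPKM in OCI-LY19R, against 3.32, 1.76 and 1.67 FPKM in OCI-LY19S. Its change of 0.67 ± 0.19 did not pass with all libraries (limma adjusted p = 0.0985) and passed without OCI-LY19S replicate 1 (limma adjusted p = 0.0126). SLC2A1 (GLUT1) overlapped between groups (0.01 ± 0.14). Of the 21, ENO2, the neuronal enolase, rose (0.75 ± 0.14), with 6.92, 5.01 and 5.86 FPKM in OCI-LY19R, against 3.11, 3.65 and 2.63 FPKM in OCI-LY19S. LDHA, lactate dehydrogenase A, had 214, 182 and 199 FPKM in OCI-LY19R, against 102, 222 and 211 FPKM in OCI-LY19S (0.23 ± 0.29). The low parental value of LDHA was that of OCI-LY19S replicate 1, and without it the change was -0.13. HK1, HK2, LDHB, PKM, PFKFB3 and PFKFB4 did not pass, with changes of -0.22 to 0.25.

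Among other metabolic genes, PGLS (0.41 ± 0.08) and the ribokinase RBKS (0.89 ± 0.15) rose of 8 pentose phosphate genes, beside 3.11% of all genes. Over all genes 5.44% were called in either direction, so 1 call in a list of 25 is near that share. IDH3A fell by 0.53 ± 0.11 as the only called gene of 25 in the tricarboxylic acid cycle; IDH2 had 109, 92.5 and 101 FPKM in OCI-LY19R, against 124, 139 and 169 FPKM in OCI-LY19S (-0.5 ± 0.13) and passed only without OCI-LY19S replicate 1 (limma adjusted p = 0.0319, against 0.0820 with it). No gene passed in limma among 34 nuclear respiratory chain genes (5 higher and 2 lower at an unadjusted p below 0.05, and 1 lower with voom). That unadjusted threshold was reached by 3002 of all 12785 genes in either direction. None passed among 13 encoded by mitochondrial DNA, with limma or voom or at an unadjusted p below 0.05, though 12 of those 13 were below 0 (median -0.19). NDRG1, a gene of the hypoxia response, had 3.38, 3.30 and 4.15 FPKM in OCI-LY19R, against 0.994, 0.608 and 0.700 FPKM in OCI-LY19S (1.38 ± 0.13, limma adjusted p = 0.00509), alone among 14 tested. ELOVL6, a fatty acid elongase, fell by 0.57 ± 0.10, alone among 25 tested genes of cholesterol and fatty acid synthesis.

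The serine and one-carbon genes and the aminoacyl-tRNA synthetases were high in OCI-LY19S replicate 1, but their median changes stayed below 0 without it. The median change was -0.75 over 11 serine and one-carbon genes, of which 1 was called higher and none lower in limma, while 8 were lower at an unadjusted p below 0.05 and 1 with voom. PHGDH, which opens serine synthesis, had 41.3, 24.9 and 24.6 FPKM in OCI-LY19R, against 111, 56.6 and 52.3 FPKM in OCI-LY19S (-1.20 ± 0.32, limma adjusted p = 0.0843). The first parental library was above the other parental libraries by a median of 0.76 over these genes and 0.54 over 18 synthetases. Without it 5 serine genes and 5 synthetases were lower at the threshold, with list medians of -0.46 and -0.30. With all libraries no synthetase passed in limma, and 1 was lower with voom. At an unadjusted p below 0.05, 9 were lower and 1 higher, beside 3002 of all 12785 genes in either direction. Over 12 heat shock chaperones the same library was lower than its group by a median of 1.19 (-1.19); HSPB1 rose in the comparison, with 66.0, 62.5 and 79.7 FPKM in OCI-LY19R, against 12.9, 32.3 and 29.2 FPKM in OCI-LY19S (1.54 ± 0.32), and it passed without that library too (1.14). Of 18 genes of the unfolded protein and integrated stress response none passed with limma or voom, and 3 were lower at an unadjusted p below 0.05. Of 12 immediate early genes, the AP-1 subunits FOS (1.26 ± 0.27) and JUND (1 ± 0.17) rose, beside 3.11% of all genes. The MAP kinase phosphatase DUSP1 fell (-1.29 ± 0.16), beside 2.34% of all genes. FOS lost its call without OCI-LY19S replicate 1 (limma adjusted p = 0.0519).

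Of 10 tested efflux transporters and vault genes 2 were called, beside 5.44% of all genes: ABCC1 and MVP rose. ABCC1 (MRP1), which exports anthracyclines, had 11.3, 11.7 and 13.9 FPKM in OCI-LY19R, against 7.32, 8.57 and 8.01 FPKM in OCI-LY19S (0.56 ± 0.11, limma adjusted p = 0.0329). MVP, the major vault protein, had 1.85, 4.37 and 4.03 FPKM in OCI-LY19R, against 0.284, 0.396 and 0.853 FPKM in OCI-LY19S (1.51 ± 0.27, limma adjusted p = 0.0286). ABCB1, the P-glycoprotein gene, was listed at 0, 0 and 0.0131 FPKM in OCI-LY19R, against 0, 0 and 0.00128 FPKM in OCI-LY19S, and ABCG2 stayed under 1 FPKM in all 6 libraries. The targets of the drug were not called: TOP2A had 76.3, 52.7 and 51.2 FPKM in OCI-LY19R, against 93.4, 85.2 and 83.9 FPKM in OCI-LY19S (-0.56 ± 0.16, limma adjusted p = 0.0983). TOP2B had 137, 126 and 115 FPKM in OCI-LY19R, against 247, 218 and 156 FPKM in OCI-LY19S (-0.69 ± 0.18, limma adjusted p = 0.0759). Both were lower in every resistant library, as were 11.8% of all genes. TOP2B passed with voom (voom adjusted p = 0.0428), the 1 voom call among 10 topoisomerase and adduct repair genes. Of these 10, 3 were lower at an unadjusted p below 0.05, beside 3002 of all 12785 genes in either direction. AKR1B1, an aldo-keto reductase, fell by 0.74 ± 0.12, alone among 11 tested anthracycline-reducing enzymes. GPX7, a peroxidase, rose by 0.62 ± 0.09, alone among 25 tested NRF2 and antioxidant genes, near the 5.44% of all genes.

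Of 27 tested p53 targets 4 rose and 1 fell, beside 3.11% and 2.34% of all genes. BTG2, an antiproliferative gene, had 6.10, 9.72 and 6.25 FPKM in OCI-LY19R, against 2.39, 2.01 and 2.38 FPKM in OCI-LY19S (1.33 ± 0.17, limma adjusted p = 0.0124). TNFRSF10D, a decoy receptor for TRAIL, had 7.71, 9.03 and 8.09 FPKM in OCI-LY19R, against 4.19, 3.47 and 3.79 FPKM in OCI-LY19S (0.95 ± 0.10, limma adjusted p = 0.00748). TP53I3 (0.98 ± 0.18) and ZMAT3 (0.68 ± 0.15) also rose, and the nuclease AEN fell by 0.57 ± 0.07. CDKN1A (p21) had 25.5, 56.8 and 45.9 FPKM in OCI-LY19R, against 28.6, 14.2 and 22.3 FPKM in OCI-LY19S, and its overlapping groups gave 0.93 ± 0.34 (limma adjusted p = 0.165). MDM2, which degrades p53, did not pass (0.44 ± 0.13, limma adjusted p = 0.0977). In the BCL2 family BIK alone was called. Of 9 survival genes none passed in limma and 1 was higher with voom. At an unadjusted p below 0.05, 3 were higher and 2 lower, beside 3002 of all 12785 genes in either direction. BCL2 had 12.8, 12 and 12.4 FPKM in OCI-LY19R, against 13.4, 15.1 and 14.4 FPKM in OCI-LY19S (-0.19 ± 0.08, limma adjusted p = 0.209).

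Among 30 tested genes of break repair and checkpoints none rose and 3 fell, beside 3.11% and 2.34% of all genes. The helicase BLM had 11.6, 9.80 and 10.5 FPKM in OCI-LY19R, against 21.1, 18.5 and 21.7 FPKM in OCI-LY19S (-0.88 ± 0.10, limma adjusted p = 0.00877). FANCI, of the Fanconi anemia pathway, had 16.4, 13.6 and 13.3 FPKM in OCI-LY19R, against 32.3, 24.3 and 25.2 FPKM in OCI-LY19S (-0.87 ± 0.14, limma adjusted p = 0.0210), and PRKDC, the catalytic subunit of DNA-PK, fell by 0.54 ± 0.10. BLM and FANCI, and the p53 target AEN, lie in the same stretch of chromosome 15 described below, and EZH2 and AKR1B1 in one of chromosome 7. None passed in limma among 25 excision and mismatch repair genes (4 higher and 1 lower at an unadjusted p below 0.05; 2 higher with voom), 26 mitosis genes (9 lower; 0 with voom), 30 replication genes (5 lower; 0 with voom) and 22 genes of MYC and ribosome biogenesis (1 higher; 0 with voom). Over all 12785 genes, 3002 reached an unadjusted p below 0.05 in either direction. All 26 mitosis genes were below 0, with a median of -0.27. MYC had 182, 215 and 204 FPKM in OCI-LY19R, against 338, 206 and 195 FPKM in OCI-LY19S, where the first parental library alone was high. CDK6 fell by 0.63 ± 0.13. Of 11 histone genes H2BC12, H2AC6 and H1-2 rose, beside 3.11% of all genes. H2BC12 had 14.7, 35.4 and 34.0 FPKM in OCI-LY19R, against 3.41, 5.50 and 6.29 FPKM in OCI-LY19S (2.19 ± 0.35, limma adjusted p = 0.0219). Histone genes are multicopy and mostly not polyadenylated, so their values in a poly(A) library are uncertain.

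In the lists of adhesion, S100 and lysosome genes, 7 members passed, each of them higher, as were 3.11% of all genes. They were ITGA6 and the leukocyte integrin beta chain ITGB2 (0.81 ± 0.13) among 9 integrins and selectins, S100A6 and the actin-binding TMSB4X (0.72 ± 0.11) among 15 genes of the S100, annexin, vimentin and galectin list, and PSAP, CTSB and NPC2 (0.41 to 0.65) among 22 lysosome genes. TMSB4X had 452, 541 and 474 FPKM in OCI-LY19R, against 274, 307 and 305 FPKM in OCI-LY19S, without overlap, as in 20.9% of all genes. GPR183, an oxysterol receptor that guides B cell migration, rose by 1.14 ± 0.19. Of the markers of other cell types PDGFRB, a growth factor receptor of stromal cells, was called: it had 4.27, 7.37 and 12.8 FPKM in OCI-LY19R, against 0.107, 0.0954 and 0.195 FPKM in OCI-LY19S (2.90 ± 0.32, limma adjusted p = 0.00826). The summed level of the 12 stromal, epithelial and endothelial markers was 4.62 to 13.3 FPKM in OCI-LY19R, against 0.176 to 0.278 FPKM in OCI-LY19S, and nearly all of it in OCI-LY19R was PDGFRB. The 9 T and NK cell markers summed to 13.3 to 17.4 FPKM in OCI-LY19R, against 10.4 to 12.5 FPKM in OCI-LY19S, and 7 myeloid markers to 10.4 to 26.6 FPKM, against 6.92 to 15.8 FPKM. Erythroid markers were listed at 0 in every library. The part of these markers in the results was not tested.

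**Figure D3:**
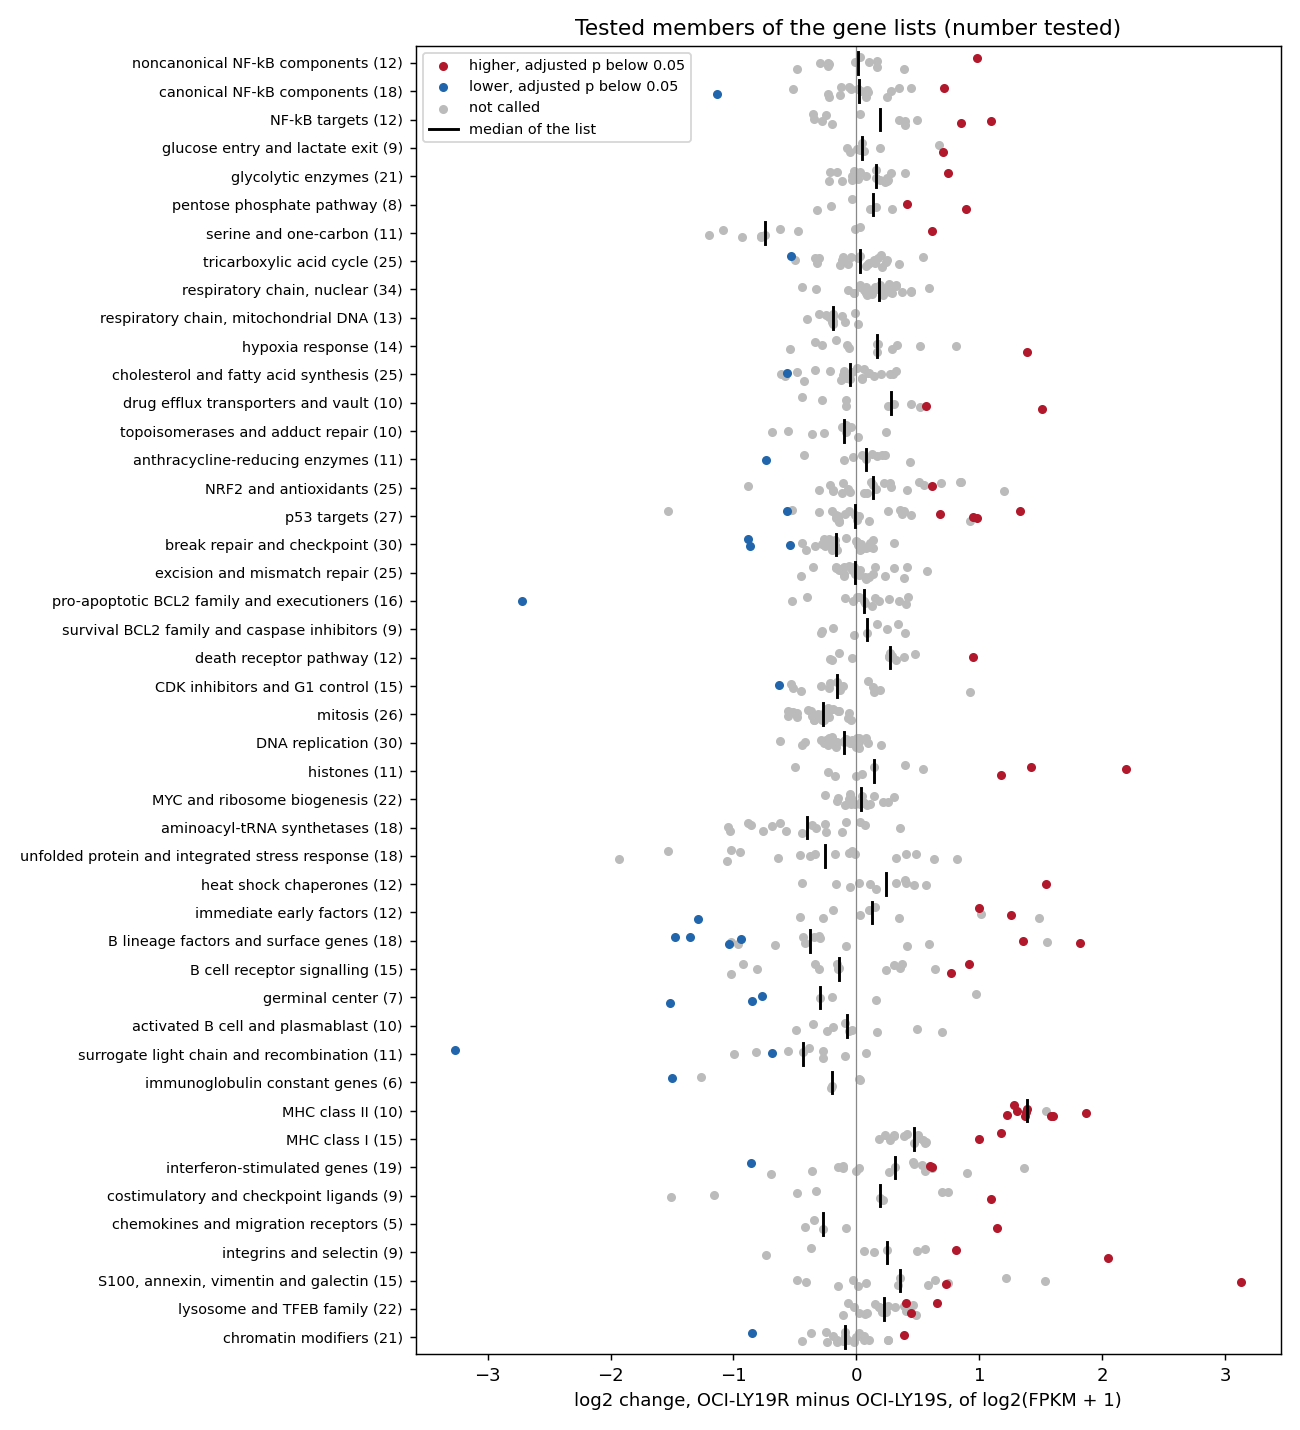
Log2 change, OCI-LY19R minus OCI-LY19S, of each tested member of the gene lists with at least 5 tested members (number in brackets), coloured by call, with the list median as a black bar. The MHC class II genes lie together around 1.38, while most other lists straddle 0.

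Calls were also grouped along chromosomes. Over windows of 11 neighbouring tested protein-coding genes, the median change was 0.05, with the 1st and 99th percentiles at -0.42 and 0.39. The highest window, with a median of 1.31, was the MHC class II cluster from GPSM3 to HLA-DMA (6:32190766-32969094), in which GPSM3 did not pass (-0.01). The next were EEIG1 to SLC27A4 on chromosome 9 (9:127940579-128361470, 0.52, called genes BBLN and GOLGA2) and ACOT13 to BTN3A1 on chromosome 6 (6:24667035-26415216, 0.52, called genes TRIM38, H1-2, H2AC6, BTN2A2 and BTN3A1). The lowest, with a median of -0.67 and 6 of 11 genes called lower, ran from EBAG9 to ZHX2 on chromosome 8 (8:109539711-122974512).

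In and around that chromosome 8 window the tested genes were split into blocks, with ends chosen after their values were seen, so the contrasts between blocks are a description. The 230 tested genes up to EBAG9 had a median of 0.07, and the next 4, EIF3H, UTP23, RAD21 and MED30 (8:116642130-117540262), fell by 1.17 to 1.68. No tested protein-coding gene lay between EBAG9 and EIF3H, so the point where the change begins cannot be placed. RAD21, the cleavable subunit of cohesin, had 102, 79.4 and 99.2 FPKM in OCI-LY19R, against 371, 284 and 258 FPKM in OCI-LY19S (-1.68 ± 0.17, limma adjusted p = 0.00711). EIF3H, a translation initiation subunit, had 81.8, 75.5 and 86.1 FPKM in OCI-LY19R, against 222, 180 and 158 FPKM in OCI-LY19S (-1.18 ± 0.14, limma adjusted p = 0.01). UTP23, of ribosomal RNA processing, fell by 1.33 ± 0.10 and MED30, a Mediator subunit, by 1.17 ± 0.18. None of the 4 overlapped between groups, beside 11.8% of all genes that lay below without overlap. In untreated OCI-LY19, RAD21 was at 169, 190 and 193 FPKM and MED30 at 25.3, 34.7 and 31.8 FPKM, beside 30.6, 26.8 and 34.0 FPKM for MED30 in OCI-LY19R and 91.6, 62.4 and 59.3 FPKM in OCI-LY19S. UTP23 overlaps both EIF3H and RAD21 on the other strand, so these neighbours may share reads. Of the 26 tested genes that follow, from TAF2 to MYC (8:119730775-127741434), 25 were below 0 with a median of -0.43 and 8 were called lower, whereas the 67 genes after MYC had a median of 0.10 and none was called lower.

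Longer stretches appeared when windows of 51 genes were taken, a choice made after the 11-gene windows were seen. Over 8487 such windows the median was 0.06 and the SD 0.10. Runs of at least 10 successive windows that departed from the median by more than 0.2 numbered 9, and shorter runs were left out. A run that reached the first or last window of a chromosome was extended to the last tested gene on that side. The lowest covered the end of chromosome 15 from CSPG4 to TARS3 (15:75674322-101724604): 84 of its 86 genes were below 0, 33 were called lower and none higher, with a median of -0.43. Chromosome 7 from TMEM168 to DYNC2I1 (7:112762382-158956747) had 115 of 124 genes below 0, 36 called lower and a median of -0.36. Chromosome 6 from PREP to PDCD2 (6:105277565-170584692) had 128 of 148 genes below 0 and a median of -0.23, chromosome 10 from ZMYND11 to CCNY (10:134465-35572669) had 66 of 81 and -0.24, and chromosome 1 from H3-3A to PGBD2 (1:226061851-248919946) had 65 of 77 and -0.19. The sixth low stretch was that of chromosome 8, from EBAG9 to ASAP1 (8:109539711-130443660), with 29 of 33 genes below 0 and a median of -0.43. The high runs were chromosome 16 from POLR3K to SNX29 (16:46407-12574289), with 135 of 148 genes above 0, 19 called higher and a median of 0.35, and 2 runs on chromosome 9 within 9:127935099-136724050, of which the longer, DPM2 to SURF2, had 59 of 67 genes above 0 and a median of 0.30.

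The stretches differed in how the resistant libraries behaved. For each library the median departure from the mean of the 6 was taken over the genes of a stretch. On chromosome 15 it was -0.23, -0.20 and -0.22 in OCI-LY19R, against 0.21, 0.19 and 0.22 in OCI-LY19S, and on chromosome 7 it was -0.19, -0.17 and -0.19, against 0.15, 0.18 and 0.19. The resistant libraries thus moved alike on both. On chromosome 6 it was -0.19, -0.18 and -0.0046 in OCI-LY19R, against 0.17, 0.12 and 0.095 in OCI-LY19S, and on chromosome 10 it was -0.16, -0.19 and 0.0096, against 0.15, 0.13 and 0.075. There OCI-LY19R replicate 3 lay nearer to the parental libraries than its group did, as it did in the longer chromosome 9 run, at 0.032 beside 0.19 and 0.23 in the other resistant libraries. On chromosome 16 it was the reverse: 0.062, 0.15 and 0.28 in OCI-LY19R, against -0.18, -0.17 and -0.13 in OCI-LY19S, with replicate 3 the farthest. Without OCI-LY19S replicate 1 the medians were -0.42 on chromosome 15, -0.36 on chromosome 7 and 0.32 on chromosome 16.

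The 6 low stretches held 105 of the 244 lower protein-coding genes (43.0%) and 5.70% of the tested protein-coding genes, and the 3 high ones 22 of 309 higher genes (7.12%) and 2.35% of those tested. The stretches were found from the same values, so these shares are a description. Among the genes already named, BLM, FANCI, AEN and IDH3A lie in the chromosome 15 stretch, EZH2, IRF5, TES and AKR1B1 in that of chromosome 7, CD24 and TNFAIP3 in that of chromosome 6, and CREBBP (0.39 ± 0.08) and CIITA in that of chromosome 16. ASS1 lies in a high stretch of chromosome 9 and fell. In the acute response of OCI-LY19 the low stretches had medians of 0.09 on chromosome 15, -0.01 on chromosome 7, -0.03 on chromosome 6, -0.08 on chromosome 10, -0.12 on chromosome 1 and -0.19 on chromosome 8, and the high ones -0.07 on chromosome 16 and 0.04 and -0.17 on chromosome 9. The lowest 11-gene window, EBAG9 to ZHX2, was lower at 24 h too, with a median of -0.62, and its 4 genes from EIF3H to MED30 had a median of -0.70. Its own 51-gene windows departed from their median by more than 0.2 as often, in 7.19% of windows against 7.41% in the acquired comparison. Chromosome content was not tested.

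**Figure D4:**
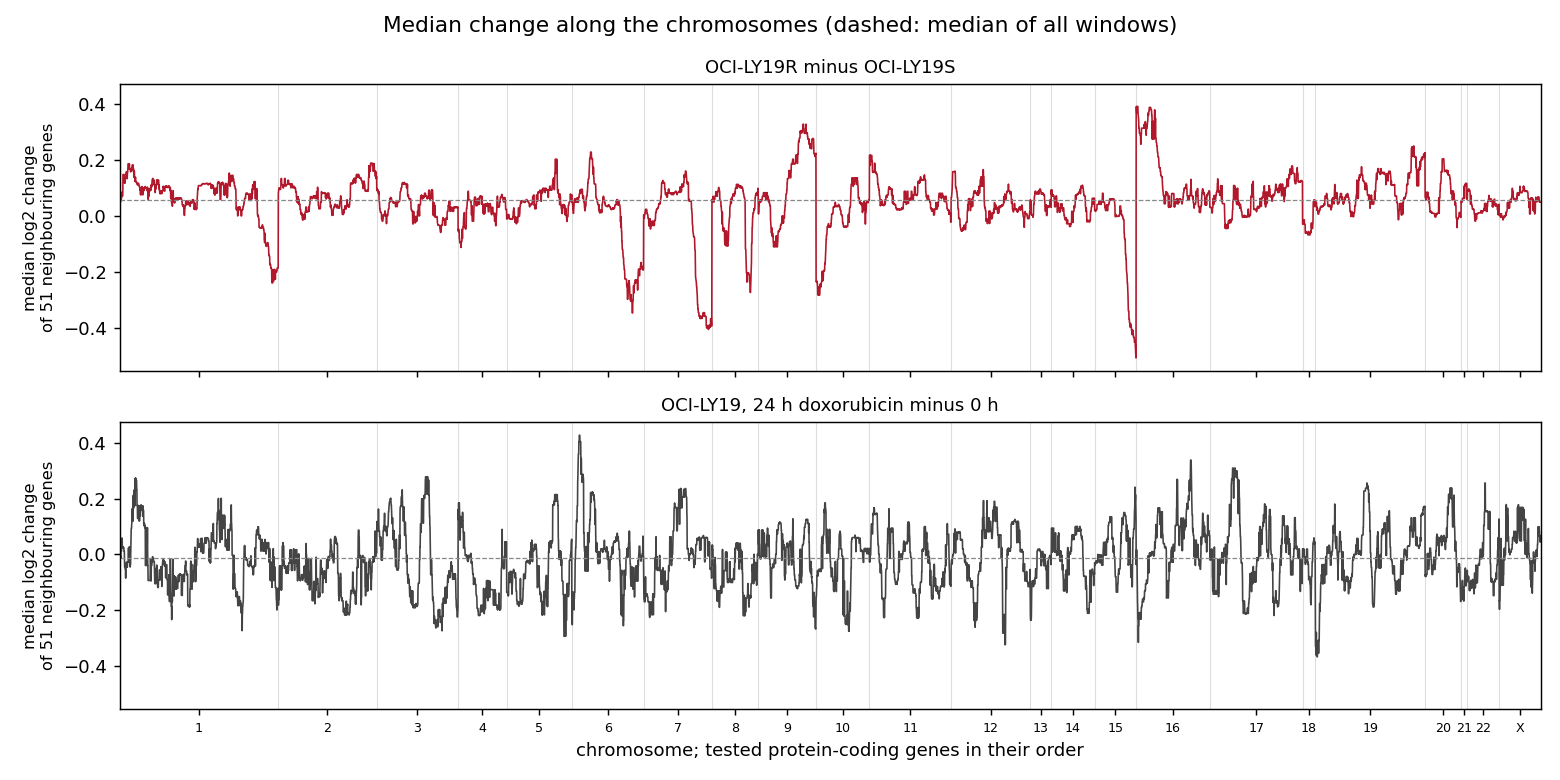
Median log2 change of 51 neighbouring tested protein-coding genes in their order along the chromosomes, for OCI-LY19R minus OCI-LY19S (top) and for OCI-LY19 at 24 h of doxorubicin minus 0 h (bottom), with the median of all windows dashed. The top panel falls to -0.51 at the end of chromosome 15 and to -0.41 at the end of chromosome 7 and reaches 0.39 at the start of chromosome 16.

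The acquired difference was set beside the acute response of the same line, again with limma. Of 17645 genes tested, 6093 (34.5%) were higher and 4184 (23.7%) lower at 24 h of 0.2 µM doxorubicin than at 0 h. That fit took its filter and its estimate of the spread from the 24 libraries of OCI-LY19, OCI-LY3, HT and SUDHL5. With the OCI-LY19 libraries alone, 4886 genes were higher and 3603 lower. The comparisons share no library. Of 374 genes higher in OCI-LY19R and tested in both, 244 (65.2%) were also higher at 24 h, against 32.5% of all 12660 genes tested in both, and they were 5.93% of the genes higher at 24 h. Of 289 lower genes, 153 (52.9%) were also lower at 24 h, against 32.0% of all, and they were 3.77% of the genes lower at 24 h. In the opposite sense, 35 higher genes were lower at 24 h and 50 lower genes were higher at 24 h. The log2 changes correlated across genes, which are not independent replicates, at a Pearson r of 0.26 and a Spearman rho of 0.24. Without OCI-LY19S replicate 1, a check chosen after seeing the data, 383 genes were higher and 256 lower in both.

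PINCR, S100A6, PTGS1 (cyclooxygenase 1), FCMR and H2BC12 were the genes of largest change higher in both. PTGS1 had 3.67, 6.44 and 10.3 FPKM in OCI-LY19R, against 0.650, 0.732 and 0.785 FPKM in OCI-LY19S (2.09 ± 0.29, limma adjusted p = 0.0153), and rose by 2.98 at 24 h. Lower in both were GPER1, ALKAL2 (a ligand of the receptor ALK), C12orf75, GPR146 and TUNAR, a non-coding RNA. ALKAL2 had 1.57, 0.915 and 0.678 FPKM in OCI-LY19R, against 9.66, 11.3 and 5.94 FPKM in OCI-LY19S (-2.26 ± 0.25, limma adjusted p = 0.00826), and changed by -2.42 at 24 h. The p53 targets separated the comparisons in size: 30 of 32 rose at 24 h with a median of 2.35, against 4 of 27 and -0.02 in OCI-LY19R. CDKN1A averaged 524 ± 29.3 FPKM at 24 h and 23.8 ± 2.99 FPKM at 0 h (SD, n = 3 each).

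Genes that moved in opposite senses included IRF5, an interferon regulatory factor. IRF5 had 0.573, 0.6 and 0.602 FPKM in OCI-LY19R, against 6.08, 4.55 and 4.43 FPKM in OCI-LY19S (-1.91 ± 0.12, limma adjusted p = 0.00175), and rose by 2.29 at 24 h. TNFAIP3, IGKC, the microtubule factor MTCL1 and the G protein subunit GNG2 were also lower in OCI-LY19R and higher at 24 h, by 1.56 to 2. Higher in OCI-LY19R and lower at 24 h were ALOX5AP, SPP1 (osteopontin), GCAT and HAL of amino acid breakdown, and RANBP3L. ALOX5AP had 21.6, 42.5 and 31.4 FPKM in OCI-LY19R, against 13.7, 5.67 and 9.05 FPKM in OCI-LY19S (1.67 ± 0.33, limma adjusted p = 0.0372), and changed by -1.08 at 24 h. The MHC class II genes rose in both: 11 of 13 tested passed at 24 h, with a median of 0.47.

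**Figure D5:**
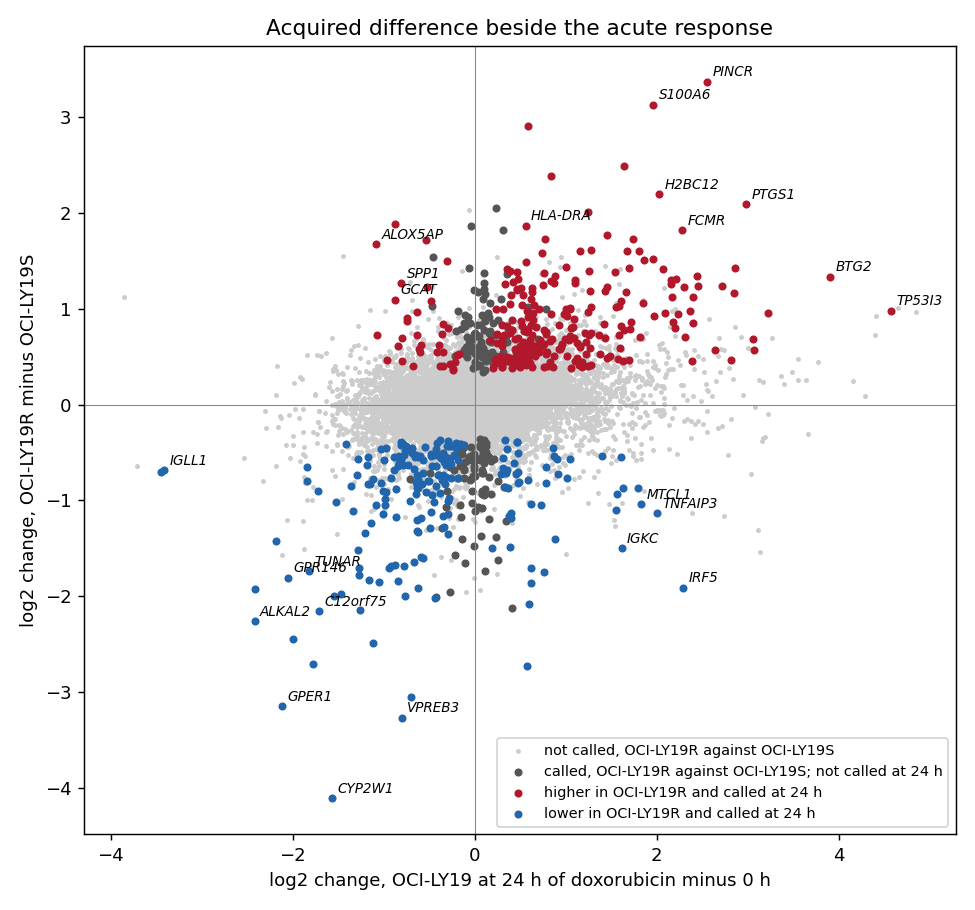
Log2 change, OCI-LY19R minus OCI-LY19S, against log2 change of OCI-LY19 at 24 h of doxorubicin minus 0 h, with a point for each gene tested in both. PINCR (3.37 and 2.55) and S100A6 (3.13 and 1.96) lie at the upper right, GPER1 and ALKAL2 at the lower left, and IRF5 at the lower right.

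The level in untreated OCI-LY19 did not always side with the parental culture. On the log2(FPKM + 1) scale the mean of the 3 untreated libraries was nearer to OCI-LY19R than to OCI-LY19S for 42.5% of the 696 called genes and 49.4% of all tested genes. The tables were normalized separately, so this is a description. PINCR was at 0.318, 0.385 and 0.895 FPKM in untreated OCI-LY19 and VPREB3 at 18.6, 16.3 and 13.9 FPKM, both near OCI-LY19S. MS4A1 was at 35.6, 29 and 20.9 FPKM, S100A6 at 10.1, 11.4 and 4.98 FPKM and ITGA6 at 12.1, 9.79 and 8.56 FPKM, all nearer to OCI-LY19R. HLA-DRA was at 80.9, 85.2 and 89.8 FPKM and ASS1 at 6.75, 7.87 and 12.9 FPKM, again nearer to OCI-LY19R than to OCI-LY19S. In the chromosome 15 stretch 64 of 86 genes (74.4%) were nearer to OCI-LY19R, in that of chromosome 7 it was 63.7%, and in those of chromosomes 6 and 16 it was 26.4% and 23%.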

How the data were processed

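Libraries were poly(A)-enriched and directional, per the labels' protocols. The submitters' processing notes list Trimmomatic, STAR, featureCounts and hg38 but give neither versions nor the strand setting of the counting. The files the authors deposited hold FPKM values per gene; their own fold change and p-value columns were not used. Members, gene lists and named genes were chosen with earlier results of these data known. The test used genes that reached 1 FPKM in 3 or more libraries, and was run on log2(FPKM + 1) with limma 3.58.1 in R 4.3.3 (eBayes with trend, two-sided, 4 residual degrees of freedom; 16 for the 8 groups of the acute fit), with Benjamini-Hochberg adjustment over all genes tested. Intervals after ± are standard errors on that scale. An exact permutation test of 3 against 3 libraries cannot go below p = 0.1 and was not used. Whole reads were recovered within 0.01 read from FPKM with GENCODE 29 exon lengths, for depth and for voom. Symbols of 60445 IDs came from the reference table and 49 from the deposited one; positions are GENCODE 29 (GRCh38) and promoters RefSeq. Named genes were, per direction, the 15 of largest change among called genes with no overlap and a mean of at least 10 FPKM in the higher group (clone-based, pseudogene, variable segment and unnamed genes left out), up to 5 called members per list, genes of the study's question, members of the 3 highest and 3 lowest windows, and the 5 of largest change shared with or opposed to the acute response. PAX5, CD79A, CD74, IRF8, PHGDH, CHAC1, HSPA8, the blocks of genes on chromosomes 7 and 8 and the 51-gene stretches were chosen after their values were seen. Some genes of these lists are not reported here. The procedure was tested on simulated data.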

Additional observations from a re-analysis of the deposited data

How the results depend on the processing

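Calls depended on which libraries were used. No named gene that passed changed sign under any alternative, but leaving out 1 library cannot change it where groups do not overlap. Counts higher and lower were 177 and 191 with the filter at FPKM 5, 75 and 55 with no filter and 136 and 140 with the replicate number as a block. Leaving out 1 library gave 3 to 620 higher and 8 to 432 lower genes. Genes at least 2-fold higher and lower were 0.876% and 0.782% of those tested, against 0.584% and 0.677% at FPKM 5, 0.0706% and 0.0911% with no filter, and 0.024% to 0.949% and 0.0635% to 0.626% with 1 library left out. On the TPM scale 1.38%, with a pseudocount of 0.1 1.47%, and with voom 1.73% were at least 2-fold higher. The acute count of higher genes was 3521 at FPKM 5, where fewer genes are tested. MHC class II members higher were 0 with no filter, 9 to 10 under the other settings that keep all libraries except 8 at FPKM 5 and 6 with the block, and 0 to 10 with 1 library left out. The deviations of same-numbered libraries correlated at 0.012, -0.11 and 0.12. With 3 libraries per group these values cannot show whether the libraries were paired, so the block result stands as an alternative. Over 21 genes the window medians were 0.36, 0.19 and 0.31 for the highest and -0.39 and -0.43 for the first and last of the lowest. The other low windows moved to -0.63 and -0.59 with median-of-ratios scaling and the last to -0.58 with quantile normalization. With 1 library left out, highest windows 2 and 3 ranged over 0.37 to 0.56 and 0.35 to 0.58, and the low windows over -0.85 to -0.60, -0.59 to -0.41 and -0.54 to -0.49. Genes higher or lower in both comparisons numbered 383 and 256 without OCI-LY19S replicate 1. Uncalled genes near 0 changed sign: with median-of-ratios scaling HK2 (-0.037), NAIF1 (-0.015), NFKB2 (-0.022) and SLC2A1 (-0.059), with quantile normalization EEIG1 (-0.022), NAIF1 (-0.012), NFKB2 (-0.0396) and SLC2A1 (-0.031), and with voom HFE (0.018). With 1 library left out the range crossed 0 for EBAG9 (-0.015 to 0.14), EEIG1 (-0.056 to 0.16), GPSM3 (-0.20 to 0.10), HFE (-0.056 to 2.56e-07), HK2 (-0.0704 to 0.11), LDHA (-0.13 to 0.43), MAP3K14 (-0.092 to 0.082), NAIF1 (-0.021 to 0.10), NFKB1 (-0.11 to 0.023), NFKB2 (-0.19 to 0.37), PFKFB4 (-0.044 to 0.49), PKM (-0.0033 to 0.43), RELB (-0.46 to 0.17), SLC25A25 (-0.22 to 0.081), SLC2A1 (-0.12 to 0.095) and SNTB1 (-0.85 to 0.086). The cause was not tested. The first 2 OCI-LY19S libraries are the shallowest and the third the deepest, and the part of depth was not tested.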
